A study of Leucoraja erinaceus with 6 samples.

Results

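The FoxP, Islet and Lhx factors that define motor columns were followed in RNA of little skate (Leucoraja erinaceus) embryos, taken from the spinal cord. The 6 members are the contigs described as ISL1, ISL2, LHX1, LHX5, FOXP1 and FOXP2, picked by contig identifier from the 7080 contigs of the deposited table. A contig is a transcript assembled from reads without a genome. The identifiers have the form that the assembler Trinity writes, and each gene name is the description that the table sets beside a contig. The libraries came from 3 samples of pectoral fin motor neurons (replicates 1, 2 and 3, called fin libraries here) and 3 samples of tail spinal cord cells (replicates 1, 2 and 4). All were manually sorted wild type cells at stage 30 to 31. The labels do not say how motor neurons were recognised during sorting, or whether separate embryos were used. The p-values therefore speak only for the spread among these 6 libraries, and that spread may be technical. The groups differ in cell class and in axial level together, and these cannot be told apart. The levels are TPM, which scale a contig's abundance for its length and for the library total.

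Motor neurons are grouped into columns that each supply one kind of muscle target, and the columns are told apart by combinations of transcription factors. In mouse and chick, FOXP1 acts with Hox proteins to set up the lateral motor column, whose axons enter the limb. Within that column ISL1 marks the medial neurons and LHX1 the lateral ones, while ISL2 is found more widely in young motor neurons. FOXP2 and LHX5 are known mainly from spinal interneurons, and LHX1 is also made by several interneuron classes.

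Read depth per library is not known from TPM. The deposited rows summed to 50000 TPM in pectoral replicate 1, against 48449 to 74224 TPM in the other 5 libraries, and whether its values were rescaled after rows were chosen was not tested. If they were, its TPM would not share a scale with the other libraries. The libraries differed in how many contigs were listed at 0, from 0.0706% in pectoral replicate 1 to 50.2% in tail replicate 4, with 14.8% to 30.6% in the other 4. In tail replicate 4, 4 of 65 ribosomal protein contigs were also at 0, so a 0 is given here as listed at 0 and not as absence. The group differences of the members are also given with pectoral replicate 1 and tail replicate 4 left out. Most other results, among them shares, orders, profile comparisons and the levels of other genes, are given with every library only. In bulk samples, fewer cells of a type and less RNA per cell cannot be told apart.

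The Islet and FoxP contigs were higher in every pectoral library than in every tail library for ISL1, ISL2 and FOXP2, and the Lhx contigs were not. These 3 of 6 members stand beside 4.60% of all 7080 contigs that were separated in that direction. The members were chosen with these values known, so the count describes them and tests nothing. In limma, a linear model with shared variance fitted to log2(TPM + 1), 0 of the 4 members that could be tested passed an adjusted p of 0.05, at which 3 of 3752 tested contigs, or 0.0800%, were called. Tested contigs had at least 1 TPM in at least 3 libraries. ISL1 and FOXP2 met that filter through the fin libraries alone, LHX1 and LHX5 through libraries of both groups, and ISL2 and FOXP1 did not meet it.

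**Figure D1:**
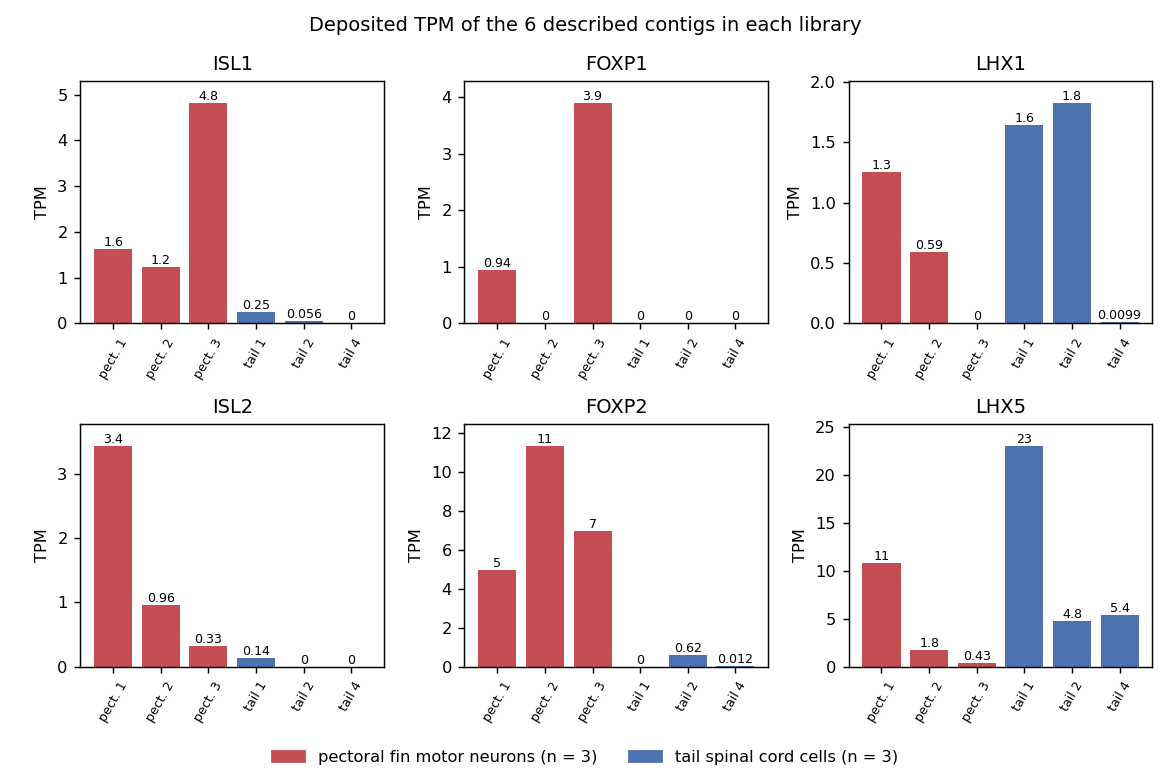
TPM of each of the 6 contigs in the 3 pectoral fin motor neuron libraries (red) and the 3 tail spinal cord libraries (blue); each bar is 1 library and each panel has its own axis from 0. ISL1, ISL2 and FOXP2 have every red bar above every blue bar, FOXP1 is at 0 in pectoral replicate 2 and in the tail, and LHX1 and LHX5 overlap.

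ISL1, a LIM homeodomain factor that new motor neurons need, is contig TRINITY_DN18037_c5_g1_i7. It measured 1.63, 1.22 and 4.81 TPM in pectoral replicates 1, 2 and 3, against 0.249, 0.0563 and 0 TPM in tail replicates 1, 2 and 4. Pectoral replicate 3 was the highest, and 96.2% of its TPM summed over the 6 libraries came from the pectoral side. The log2 fold change, pectoral minus tail, was 1.56 (95% interval 0.16 to 2.97, SE 0.69, limma adjusted p = 0.62). An exact two-sided permutation test gave p = 0.1, the smallest that 3 libraries against 3 allow. The contig exceeded 52.1%, 63.8% and 83.6% of all contigs in the fin libraries, against 24.6%, 27.0% and 0% in the tail libraries.

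ISL2, the close relative of ISL1, is contig TRINITY_DN18523_c7_g3_i3. Its values were 3.43, 0.956 and 0.327 TPM in the fin libraries, against 0.139, 0 and 0 TPM in the tail libraries. The groups did not overlap, although the lowest fin value, in replicate 3, was close to the value of tail replicate 1. The mean of log2(TPM + 1) was 1.17 in fin libraries and 0.063 in tail libraries, a difference of 1.11, or 0.63 without pectoral replicate 1. The exact permutation p was 0.1. In the fit with no filter on low values its limma adjusted p was 0.94.

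The 2 Islet genes did not keep one order among the fin libraries. ISL1 was 0.476 times ISL2 in pectoral replicate 1, 1.28 times in replicate 2 and 14.7 times in replicate 3. Their sum was steadier, at 5.06, 2.18 and 5.14 TPM in fin libraries, against 0.388, 0.0563 and 0 TPM in tail libraries.

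FOXP1 has 1 described contig, TRINITY_DN17757_c0_g1_i1. It measured 0.940, 0 and 3.90 TPM in fin libraries, and was listed at 0 in each of the 3 tail libraries. The 0 in pectoral replicate 2 makes the groups overlap. With every tail library at 0, no fold is given, and the difference of mean log2(TPM + 1), 1.08, depends on the constant added. The exact permutation p was 0.4, and the fit with no filter gave a limma adjusted p of 0.94.

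The described FOXP1 contig was a small part of its Trinity gene, the cluster of contigs that the assembler took for variants of one transcript unit. That cluster, TRINITY_DN17757_c0_g1, holds 4 deposited contigs, of which the other 3 carry no description. The described contig gave 5.14%, 0% and 18.1% of the cluster's TPM in pectoral replicates 1, 2 and 3. The undescribed TRINITY_DN17757_c0_g1_i8 gave 73.8%, 67.7% and 79.4% there, and 100% and 85.7% in tail replicates 1 and 2. It measured 13.5, 25.1 and 17.1 TPM in fin libraries, against 0.181, 5.10 and 0 TPM in tail libraries. Its groups did not overlap, and its log2 fold change was 3.30 (95% interval 1.27 to 5.33, SE 0.996, limma adjusted p = 0.40). It reached 1 TPM in tail replicate 2 as well as in the 3 fin libraries.

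The next contig of the cluster, TRINITY_DN17757_c0_g1_i9, measured 2.75, 11.97 and 0.531 TPM in fin libraries, against 0, 0.661 and 0 TPM in tail libraries, and overlapped. The last, TRINITY_DN17757_c0_g1_i7, was above 0 in pectoral replicate 1, at 1.09 TPM, and in tail replicate 2, at 0.188 TPM. Both failed to reach 1 TPM in 3 libraries and were not tested. None of the 3 undescribed contigs was matched to a gene name here, and the cluster is the assembler's.

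Summed over the cluster, the levels were 18.3, 37.1 and 21.5 TPM in fin libraries, against 0.181, 5.95 and 0 TPM in tail libraries. Every fin value was above the highest tail value, which was in replicate 2. The log2 fold change of this sum was 3.66 (95% interval 1.64 to 5.67, SE 0.996), with a limma adjusted p of 0.23 over 3626 Trinity genes, of which 4, or 0.110%, were called. The adjusted p ran from 0.079 without tail replicate 2 to 0.84 without pectoral replicate 3, and was 0.52 with pectoral replicate 1 and tail replicate 4 both left out. Summing over Trinity genes separated the sums that hold ISL1, ISL2, FOXP1 and FOXP2, pectoral above tail, beside 4.60% of all 6645 Trinity genes.

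**Figure D2:**
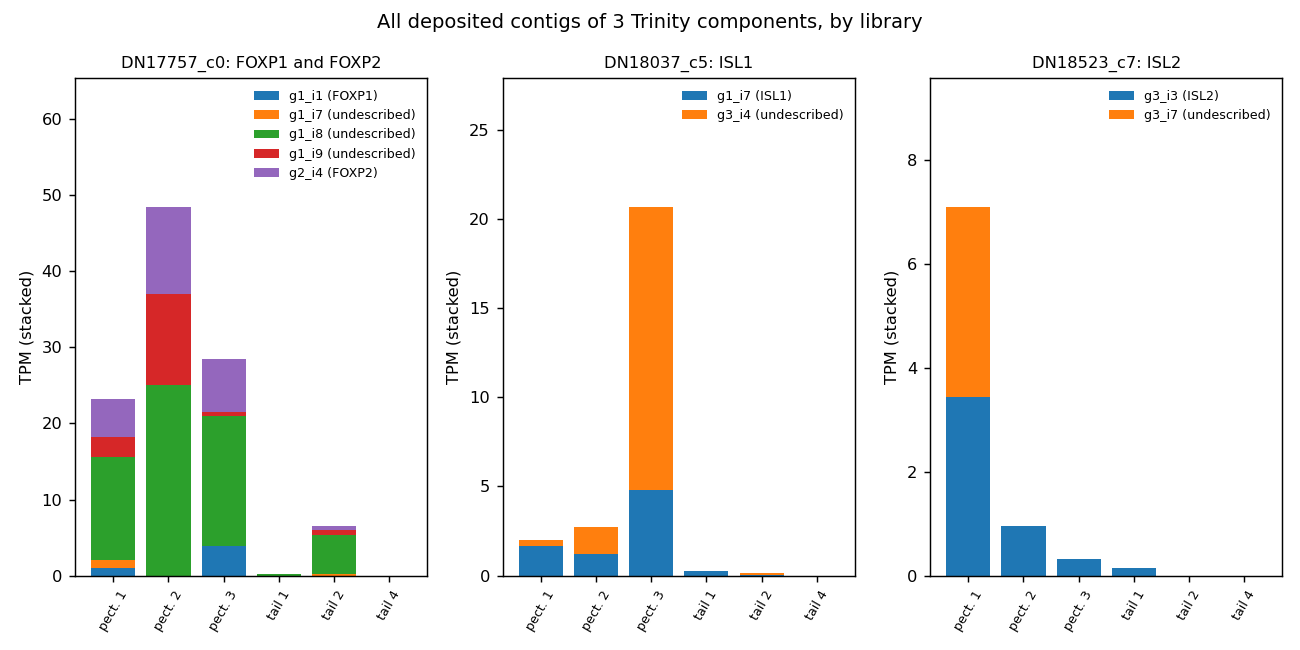
Stacked TPM of every deposited contig of the 3 Trinity components that hold more contigs than the 6 members, by library, with fin libraries left of tail libraries. In the FoxP component the undescribed contig g1_i8 is the tallest block in all 3 fin libraries, and the ISL1 component is tallest in pectoral replicate 3.

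FOXP2, a forkhead factor known from V1 interneurons and other neurons of the mouse spinal cord, is contig TRINITY_DN17757_c0_g2_i4. It measured 4.99, 11.3 and 6.96 TPM in the fin libraries, against 0, 0.617 and 0.0119 TPM in the tail libraries. All 3 pectoral values were above every tail value, and pectoral replicate 2 was the highest. The log2 fold change was 2.83 (95% interval 0.79 to 4.87, SE 1.001, limma adjusted p = 0.54). Its exact permutation p was 0.1. FOXP2 exceeded 89.8%, 93.5% and 87.9% of all contigs in the fin libraries, against 0%, 48.1% and 51.2% in the tail libraries. Tail replicate 4 had 50.2% of its contigs at 0, so the last of these shares was reached with a trace of signal. In the authors' deposited table FOXP2 was the member with a p-value under 0.05, at 0.016, as had 3.09% of the table, and those of the other 5 members ran from 0.097 to 0.47.

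FOXP1 and FOXP2 lie in 1 Trinity component, which means that the assembler joined them through shared sequence, and reads of related forkhead genes may have been divided between their contigs. They are separate genes in the RefSeq annotation of the little skate assembly Leri_hhj_1, which names 3 FoxP genes. FOXP2 was 0.273, 0.306 and 0.324 times the sum of the FOXP1 cluster in pectoral replicates 1, 2 and 3. It was 0.104 times that sum in tail replicate 2, the tail library in which both were above 0. Whether shared reads set this ratio was not tested.

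LHX5, a LIM homeodomain factor of spinal interneurons, is contig TRINITY_DN18128_c0_g1_i1 and was the member above 0 in all 6 libraries. It measured 10.8, 1.76 and 0.426 TPM in the fin libraries, against 23.0, 4.79 and 5.38 TPM in the tail libraries. The averages were 4.35 ± 5.67 TPM in fin libraries and 11.1 ± 10.3 TPM in tail libraries (mean ± SD, n = 3 each). Replicate 1 was the highest library of each group, and the groups overlapped through pectoral replicate 1. The log2 fold change was -1.42 (95% interval -3.51 to 0.68, SE 1.03, limma adjusted p = 0.87), and the exact permutation p was 0.3. The fold change was -2.27 without pectoral replicate 1, -0.75 without pectoral replicate 3 and -0.76 without tail replicate 1.

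LHX1, which marks the lateral division of limb motor neurons and several interneuron classes, is contig TRINITY_DN17684_c4_g1_i1. It measured 1.26, 0.587 and 0 TPM in the fin libraries, against 1.65, 1.82 and 0.00987 TPM in the tail libraries. The lowest library of each group was at or near 0, and the groups overlapped. The log2 fold change was -0.36 (95% interval -1.65 to 0.93, SE 0.63, limma adjusted p = 0.92), with an exact permutation p of 0.5. It was -0.05 without pectoral replicate 3 and -0.84 without tail replicate 4.

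With pectoral replicate 1 and tail replicate 4 both left out, the differences of mean log2(TPM + 1) were 1.65 for ISL1 and 0.59 for ISL2. They were 1.15 for FOXP1, 2.96 for FOXP2, -1.12 for LHX1 and -2.57 for LHX5. The signs of all 6 were those with every library, and all differences but that of ISL2 were larger in size.

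**Figure D3:**
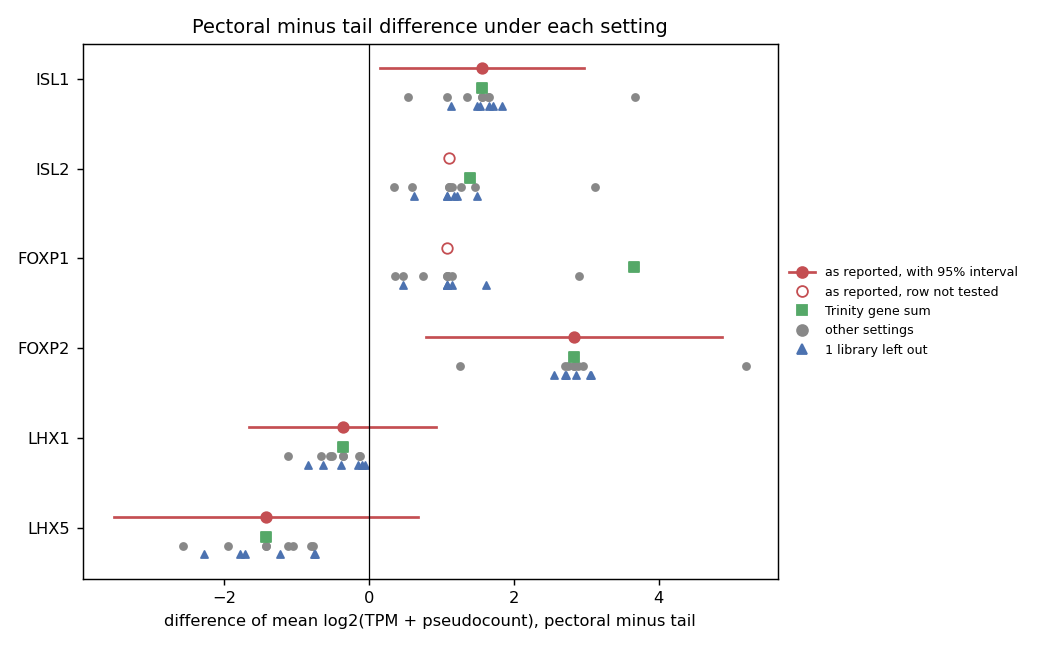
Difference of mean log2(TPM + pseudocount), pectoral minus tail, for each of the 6 factors: red points are the reported values with 95% intervals (open where the row was not tested), green squares sums over the Trinity gene, grey points other settings and blue triangles fits without 1 library. ISL1, ISL2, FOXP1 and FOXP2 lie right of 0 and LHX1 and LHX5 left of it at every setting, and the intervals of LHX1 and LHX5 cross 0.

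The order of the 6 contigs within a library differed between the groups. LHX5 was the highest in all 3 tail libraries, with LHX1 next in tail replicates 1 and 2 and FOXP2 next, at 0.0119 TPM, in tail replicate 4. In pectoral replicates 2 and 3 FOXP2 was the highest, followed by LHX5 in replicate 2 and by ISL1 in replicate 3. In pectoral replicate 1 LHX5 led and FOXP2 was next. This order ranks FOXP1 by its described contig alone. The undescribed contig TRINITY_DN17757_c0_g1_i8 of its cluster was above LHX5 in tail replicate 2, at 5.10 against 4.79 TPM. It was also above LHX5 in pectoral replicate 1, at 13.5 against 10.8 TPM, and above FOXP2 in pectoral replicates 2 and 3. At least 1 TPM was reached by 5, 3 and 3 of the 6 contigs in pectoral replicates 1, 2 and 3, against 2, 2 and 1 in tail replicates 1, 2 and 4.

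Pooled across families, the Islet and FoxP contigs together had 11.0, 13.5 and 16 TPM in fin libraries, against 0.388, 0.674 and 0.0119 TPM in tail libraries. This pooling does not follow gene families, since Islet and Lhx genes are both LIM homeodomain genes. The Lhx pair had 12.1, 2.35 and 0.426 TPM in fin libraries, against 24.6, 6.61 and 5.39 TPM in tail libraries. The Lhx pair was thus 52.4%, 14.8% and 2.59% of the TPM of all 6 contigs in fin libraries, against 98.4%, 90.7% and 99.8% in tail libraries. These shares did not overlap, while the Lhx levels did, and the rows were grouped after their values were known. They also count FOXP1 by its described contig alone, at 0 TPM in tail replicate 2 and 0.940 TPM in pectoral replicate 1. Its whole Trinity gene summed to 5.95 and 18.3 TPM there, so the Lhx shares of these libraries depend on leaving the undescribed contigs out. Pectoral replicate 1 was the pectoral library with the most Lhx signal, and it also had the fewest contigs at 0.

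**Figure D4:**
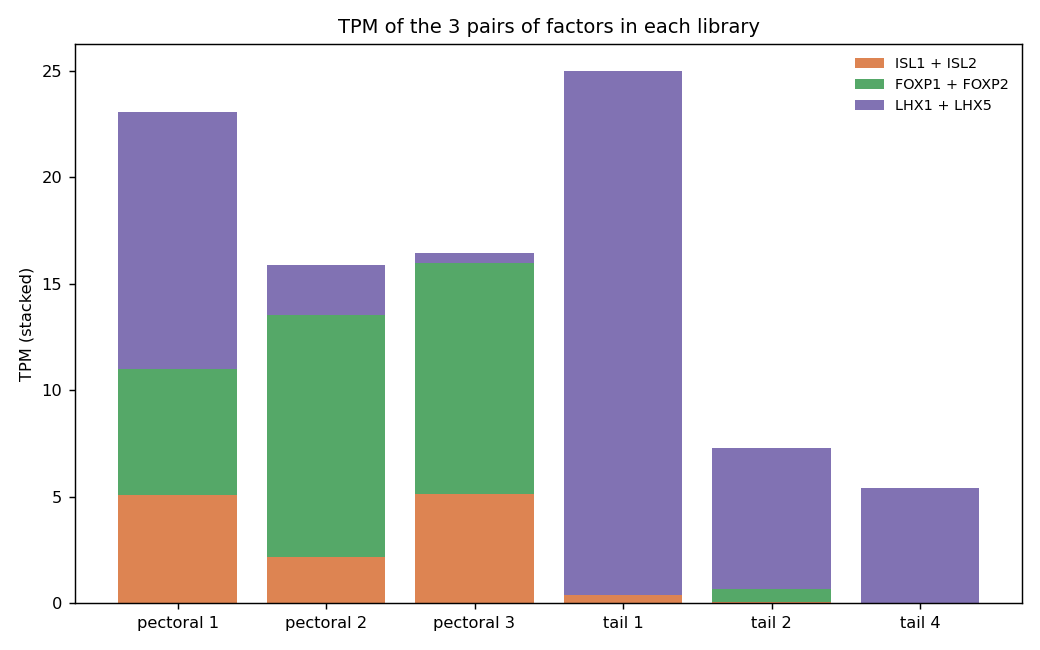
TPM of the Islet pair, the FoxP pair (described contigs) and the Lhx pair, stacked for each library, fin libraries left of tail libraries. Tail bars are almost wholly LHX1 and LHX5, and pectoral replicates 2 and 3 are mostly FOXP1, FOXP2, ISL1 and ISL2. The undescribed contigs of the FOXP1 cluster, at 5.10 TPM for g1_i8 in tail replicate 2, are not counted.

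Among the members, ISL1 and the described FOXP1 contig had the most similar profiles, with a root mean square difference of 0.38 between their log2(TPM + 1) values over the 6 libraries, each centred on its own mean. The least similar were LHX5 and FOXP2, at 2.53. Among the other described contigs that passed the filter, HOXB7 (described as homeobox B7a), a Hox gene of the trunk, was the second nearest to FOXP2 (0.33), after CHCHD2, a mitochondrial protein (0.27). HOXB7 measured 2.75, 5.56 and 5.05 TPM in fin libraries, against 0, 0.109 and 0 TPM in tail libraries. The nearest to ISL1 was synuclein gamma a (0.27), at 2.89, 1.22 and 4.10 TPM in fin libraries, against 0.641, 0 and 0.228 TPM in tail libraries. Like FOXP2 and ISL1, the rows HOXB7, CHCHD2 and synuclein gamma a met the filter through the fin libraries alone. Their nearness thus repeats that group difference and is no separate result. Nearest to ISL2 was a row described as inhibitor of growth family, member 3 (0.39), to LHX1 proteasome maturation protein (0.15), to LHX5 xenotropic and polytropic retrovirus receptor 1a (0.43) and to FOXP1 eukaryotic translation initiation factor 2, subunit 1 alpha b (0.27).

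Of the partners through which these factors act, few had a described row. Of the 7080 contigs 1577 carry a description, so a gene with no described row is not shown to be absent. In the list of LIM homeodomain genes and their cofactors 6 of 22 genes had one, 4 were tested and 0 passed, with a median log2 fold change of -0.52 beside -0.18 for all tested contigs. The members ISL1, ISL2, LHX1 and LHX5 are among these 6. The tested genes were ISL1, LHX1, LHX5 and SSBP3, so the median mostly describes members, and SSBP3 alone was at -0.68. LDB1, which bridges LIM homeodomain proteins, measured 7.56, 0.0731 and 0 TPM in fin libraries, against 0.571, 4.40 and 0 TPM in tail libraries. LDB1 did not reach 1 TPM in 3 libraries and was not tested. SSBP3, which stabilises LDB1, measured 2.25, 0 and 0.198 TPM, against 4.76, 1.79 and 0 TPM in tail libraries. Of 22 genes of the FoxP family and its co-repressors 3 had a row, the members FOXP1 and FOXP2 and the co-repressor CTBP2. The 2 tested were FOXP2, at a log2 fold change of 2.83, and CTBP2, at 0.63, and 0 passed. Their median of 1.73 thus includes a member that met the filter through fin libraries alone and describes no set of partners. CTBP2, of a co-repressor family that binds FoxP proteins, averaged 2.84 ± 1.56 TPM in fin libraries and 1.97 ± 2.66 TPM in tail libraries (mean ± SD, n = 3 each). In the motor column list, which holds all 6 members, 7 of 13 genes had a row, 5 were tested and 0 passed, with a median of -0.36. That median is the value of the member LHX1. Its other member with a row, ALDH1A2, which makes retinoic acid in limb-level motor neurons, measured 1.20, 1.51 and 0 TPM in fin libraries, against 14.9, 2.004 and 0 TPM in tail libraries. No described row was matched to LHX3, LHX4, MNX1, ETV4, ETV5 or POU3F1.

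Effector genes of motor neurons did not follow one direction. Of 20 effector genes 6 had a row, 5 were tested and 0 passed, with a median log2 fold change of 0.64. CHAT, the enzyme that makes acetylcholine, measured 2.61, 3.72 and 0 TPM in fin libraries, against 2.85, 2.81 and 0.522 TPM in tail libraries. NGFR, a neurotrophin receptor, measured 5.16, 7.58 and 8.96 TPM in fin libraries, against 0 in each tail library. ACHE, which breaks down acetylcholine, measured 4.93, 0 and 0.0258 TPM in fin libraries, against 10.5, 11.0 and 0 TPM in tail libraries. SLC18A3, which loads acetylcholine into vesicles, averaged 3.19 ± 0.965 TPM in fin libraries and 1.85 ± 1.56 TPM in tail libraries (mean ± SD, n = 3 each). Of the 8 motor neuron markers, the 4 with a row, ISL1, ISL2, CHAT and SLC18A3, summed to 7.99 to 11.6 TPM in fin libraries, against 2.91 to 5.96 TPM in tail libraries. ISL1 and ISL2, members chosen with these values known, separated the groups, and CHAT and SLC18A3 overlapped between them. The sum contains the members and so is no separate marker result.

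Of 28 motor axon guidance genes 7 had a row, 3 were tested and 0 passed, with a median of -0.42. EFNB1, a ligand of Eph receptors, was separated the other way, at 1.01, 5.08 and 0.0485 TPM in fin libraries, against 6.52, 10.3 and 16.4 TPM in tail libraries (a log2 difference of -2.29, SE 1.005, limma adjusted p = 0.62). The share of all contigs separated in that direction was not counted. NCAM1, a neural adhesion molecule, averaged 7.23 ± 5.48 TPM in fin libraries and 15.2 ± 16.01 TPM in tail libraries (mean ± SD, n = 3 each), and NTN1, the attractant netrin, 4.21 ± 3.94 TPM in fin libraries and 0.970 ± 1.34 TPM in tail libraries. CDH7, a cadherin of motor neuron pools in chick, was not tested and measured 5.05, 1.77 and 0 TPM in fin libraries, against 0 in each tail library. The other untested genes of this list with a row, NRP1, NRP2 and EFNB2, had the higher mean in tail libraries. NRP1 averaged 0.253 ± 0.243 TPM in fin libraries and 6.24 ± 10.2 TPM in tail libraries. For NRP2 these were 0.241 ± 0.417 and 6.39 ± 6.86 TPM, and for EFNB2 0.515 ± 0.892 and 4.26 ± 6.79 TPM (mean ± SD, n = 3 each). The groups overlapped for CDH7, NRP1, NRP2 and EFNB2.

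Markers of other cells bear on how FOXP2, LHX1 and LHX5 are read, since interneurons also make them. No described row was matched to EN1 or the other ventral interneuron factors on a list of 17, nor to the 27 dorsal interneuron factors. Of 10 transmission genes 4 had a row, all 4 were tested and 0 passed, with a median log2 fold change of -0.03. SLC17A6, a vesicular glutamate transporter, measured 1.28, 31.5 and 0 TPM in fin libraries, against 6.14, 0 and 0 TPM in tail libraries. SLC6A5, a glycine transporter, measured 1.70, 0 and 0 TPM in fin libraries, against 10.05, 5.78 and 0 TPM in tail libraries. GPHN, which anchors receptors at inhibitory synapses, measured 1.16, 2.05 and 0 TPM in fin libraries, against 2.88, 1.87 and 0 TPM in tail libraries. GAD1, the other tested gene of this list, measured 2.12, 1.02 and 0.255 TPM in fin libraries, against 1.08, 1.59 and 0 TPM in tail libraries. The log2 fold change was 0.18 for GAD1 and 1.12 for SLC17A6, against -1.60 for SLC6A5 and -0.25 for GPHN. The groups overlapped for all 4 of these genes. The part of interneurons in the FOXP2 and Lhx levels was not tested.

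Radial glia and progenitor markers were, in their sum but not gene by gene, higher on the same side as the Islet and FoxP contigs. The 5 of 16 such genes with a row summed to 78.8 to 116 TPM in fin libraries, against 21.3 to 56.3 TPM in tail libraries, and 0 of 5 tested passed. ID4, an inhibitor of bHLH factors, made up most of it in pectoral replicates 1 and 3, and every fin value was above every tail value, at 72.6, 30.3 and 76.9 TPM in fin libraries, against 14.4, 22.4 and 0.309 TPM in tail libraries. FABP7, a lipid carrier of radial glia, averaged 29.5 ± 17.3 TPM in fin libraries and 11.6 ± 8.19 TPM in tail libraries (mean ± SD, n = 3 each). SOX2, a neural progenitor factor, was at 2.85, 0 and 0.439 TPM in fin libraries, against 14.0, 5.98 and 0 TPM in tail libraries, so the list's members did not share a direction. The log2 fold change was 2.86 for ID4, 1.23 for FABP7 and 0.39 for ID2, against -1.41 for SOX2 and -1.68 for SOX9. The groups overlapped for each of these genes but ID4. PAX6, the 1 of 18 motor neuron progenitor factors with a row, averaged 0.842 ± 0.642 TPM in fin libraries and 1.79 ± 0.693 TPM in tail libraries (mean ± SD, n = 3 each). The part of progenitor RNA in the Islet and FoxP levels was not tested.

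Of mesenchyme and cartilage markers 2 of 11 had a row. COL2A1, a cartilage and notochord collagen, measured 2.22, 69.0 and 4.49 TPM in fin libraries, against 4.91, 0.109 and 0 TPM in tail libraries, and SOX9, shared with the progenitor list, 2.14, 0.382 and 0.134 TPM in fin libraries, against 6.95, 19.4 and 0 TPM in tail libraries. Pectoral replicate 2, with the highest COL2A1, was also the library with the highest FOXP2 and FOXP1 cluster sum. Without it their log2 fold changes were 2.55 and 3.37, with COL2A1 still at 2.22 and 4.49 TPM in pectoral replicates 1 and 3. The part of cartilage or notochord RNA in the FoxP levels was not tested. The floor and roof plate list had 2 of 10 genes with a row, NTN1 and SHH, which summed to 3.34 to 9.82 TPM in fin libraries, against 0.0579 to 3.46 TPM in tail libraries. Of 7 neuronal markers GAP43, a growth cone protein, and STMN2, a tubulin-binding protein of growing axons, had a row. GAP43 averaged 27.9 ± 14.0 TPM in fin libraries and 18.3 ± 21.4 TPM in tail libraries, and STMN2 averaged 2.46 ± 0.682 TPM in fin libraries and 1.48 ± 1.30 TPM in tail libraries (mean ± SD, n = 3 each). In the lists of sensory ganglion, oligodendrocyte, blood, muscle, ventral interneuron and dorsal interneuron genes, 6 of the 18, no gene was matched to a described row.

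**Figure D5:**
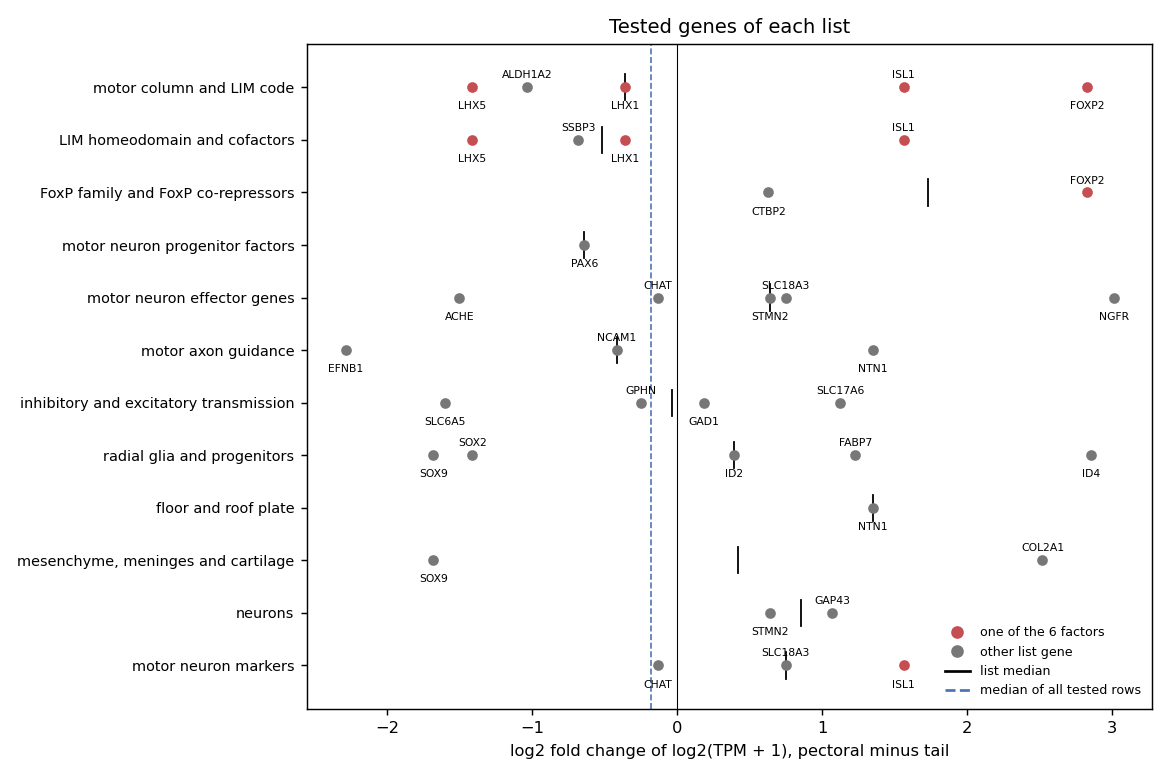
Log2 fold change, pectoral minus tail, of every tested gene of each list, with the 4 tested factors in red, the list median as a black tick and the median of all tested contigs (-0.18) as a dashed line. No gene passed the adjusted threshold, and most lists have genes on both sides of 0.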

How the data were processed

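RNA of 3 pectoral fin motor neuron and 3 tail spinal cord libraries (Arcturus PicoPure extraction, TruSeq stranded mRNA) was deposited by the authors as 1 table of TPM with a column for each library, as the file headers show. Tools named in the submitters' processing notes, with no roles, are Trimmomatic 0.33, Salmon 0.8.2 and edgeR 3.18.1. How contigs were assembled and described is not given in the sources used here, beyond identifiers in Trinity's form. The authors' deposited p-value column matched a two-sided equal-variance comparison of TPM. Of 7081 rows 1 exact repeat was removed. Deposited rows summed to 48449 to 74224 TPM per library, and depth is unknown, so no counting interval is given. Members were found by contig identifier. Other symbols were matched by hand to descriptions: 36 of 243 listed genes had a row, 27 were tested, and where a symbol had several, the row with the highest mean was used. Of the 6 members, 5 had a gene of the same name in RefSeq's Leri_hhj_1 annotation, while 0 of the table's accessions matched it.

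limma 3.58.1 in R 4.3.3 (empirical Bayes with a variance trend, two-sided) was run on log2(TPM + 1) across all genes kept, the 3752 rows reaching 1 TPM in 3 or more libraries, with Benjamini-Hochberg adjustment over all of them, and was tested on simulated data. The pseudocount of 1 makes fold changes of low rows smaller than ratios of TPM. Exact permutation tests were run, without adjustment, for the 6 members, the other contigs of their components, the Trinity gene sums and the named list and forkhead genes. They are given above for the members only. The smallest possible p, 0.1, was also reached in this test by NGFR, ID4, EFNB1, FOXO1 and TRINITY_DN17757_c0_g1_i8, among others. The alternatives covered the pseudocount, the filter, scaling, the variance trend, the replicate block, Trinity gene sums and leaving out libraries. The members and lists were chosen with earlier results of these data known. Named genes were the members, contigs of their components, up to 3 tested genes of highest mean TPM per list, and the nearest rows in profile. LDB1, CDH7, EFNB2, NRP1, NRP2, GAD1, ID2, SOX2 and SHH lie outside this rule and were chosen after their values were seen. Some listed genes are not reported here.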

Additional observations from a re-analysis of the deposited data

How the results depend on the processing

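All 6 members kept the sign of their difference under each of 15 alternatives, and 0 of the tested ones passed adjustment in any. Part of this was fixed by the values. ISL1, ISL2 and FOXP2 had every fin value above every tail value, and FOXP1 was at 0 in the tail. No pseudocount or left-out library could therefore reverse their signs. The filter and the variance trend leave the difference itself unchanged. The lowest adjusted p were 0.52 for ISL1 and 0.34 for FOXP2, both without tail replicate 4, and 0.64 for LHX1 and 0.50 for LHX5, both with pectoral replicate 1 and tail replicate 4 left out. The ISL2 difference was 3.13 at a pseudocount of 0.1 and 0.35 at 5, and that of FOXP1, 1.08 as reported, was 2.90 with a pseudocount of 0.1 and 3.66 summed over its Trinity gene; adding a constant to low values makes the first kind of change by construction. Leaving out 1 library gave 1.14 to 1.83 for ISL1, 0.63 to 1.49 for ISL2, 0.48 to 1.62 for FOXP1, 2.55 to 3.07 for FOXP2, -0.84 to -0.05 for LHX1 and -2.27 to -0.75 for LHX5. For the FOXP1 Trinity gene sum, examined under 14 alternatives chosen after seeing the data, the log2 fold change ran from 2.17 with a pseudocount of 5 to 5.47 with one of 0.1, and from 3.15 to 4.55 without 1 library.

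Called contigs numbered 3, and 1 with a pseudocount of 0.1, with median-ratio scaling, with quantile scaling, with no variance trend and with the replicate block, 0 with pectoral replicate 1 and tail replicate 4 left out, and 1 to 3 without 1 library, with 1 when pectoral replicate 1, pectoral replicate 3 or tail replicate 1 was left out; the causes were not tested. The median fold change over tested contigs was -0.18 on the log2 scale, and 0.08 with median-ratio scaling, a shift that the signs above survived. Replicate numbers 1 and 2 are shared by both groups, but equal numbers did not deviate together (r across contigs -0.033 and -0.0027), so they were not taken as pairs. With the replicate block ISL1 was 1.07, FOXP2 2.76 and LHX5 -1.04, with 0 members passing. Pectoral replicate 3 and tail replicate 4 share their numbers with no library of the other group. The block therefore removed them from the difference, which rested on replicates 1 and 2 of each group.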

Other observations

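Other forkhead contigs with a description are named here after their values were seen. Unlike FOXP2, none of those named had every fin library above every tail library. The described FOXP1 contig did not have that separation either, so no profile common to the FoxP contigs is claimed. FOXO1, a forkhead factor controlled by insulin signalling, measured 0.848, 0.174 and 0.585 TPM in fin libraries, against 9.98, 6.94 and 0.945 TPM in tail libraries. Every tail library was higher, and the share of all contigs separated that way was not counted. FOXO3 measured 0.290, 0.513 and 0.242 TPM in fin libraries, against 1.98, 0.283 and 0.151 TPM in tail libraries. FOXK1 measured 1.41, 2.58 and 0 TPM in fin libraries, against 5.13, 0.529 and 0.0291 TPM in tail libraries. FOXO1 and FOXO3 did not reach 1 TPM in 3 libraries and were not tested. The limma adjusted p of FOXK1 was 0.998.

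An undescribed contig of the ISL1 component, TRINITY_DN18037_c5_g3_i4, measured 0.343, 1.53 and 15.8 TPM in fin libraries, against 0, 0.0655 and 0 TPM in tail libraries. Its highest library, pectoral replicate 3, was also that of ISL1. An undescribed contig of the ISL2 Trinity gene, TRINITY_DN18523_c7_g3_i7, measured 3.66 TPM in pectoral replicate 1, also the highest library of ISL2, and was listed at 0 in the other 5.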
